A study of Oryza sativa with 6 samples.

Results

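Genes for calmodulin-like calcium sensors were examined in whole rice seedlings mutant for CHR729 by a T-DNA insertion, against wild-type seedlings. Each gene with the symbol or synonym CML10, CML15, CML18, CML30 or CML31 was taken, with every probe set that the array annotation assigns to it. A probe set is a group of short DNA probes that together report 1 transcript. The rule gave 5 genes with 6 probe sets, 2 for CML10 and 1 for each other gene, out of 17905 genes and 57258 probe sets tested. These genes were chosen because their signals were already known to be lower in the mutant. Their differences between the genotypes are therefore given as a description, without a test.

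The mutant seedlings came from a T-DNA line of CHR729, a gene for a CHD-type chromatin remodelling protein, and the labels give neither the insertion's position nor whether plants were homozygous. The wild-type seedlings were of the cultivar Hwayoung, a japonica rice; the mutant's labels name no cultivar. All seedlings were 11 days old and grew on medium with 0.8% agar and 3% sucrose under 14 h of light at 28 °C and 10 h of dark at 24 °C. Each genotype has 3 samples that the labels call biological replicates, each hybridised to its own Affymetrix Rice Genome Array, with no statement of day, batch or plants pooled. No probe set is paired with CHR729 in the annotation, so its transcript was not analysed here. Median signals lay between 67.6 and 71.1 on the 6 arrays, and the number of arrays limits the precision.

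Calcium ions act as a messenger in plant cells: cold, touch, wounding, pathogens and hormones each cause short bursts of calcium in the cytosol. Sensor proteins read these bursts through EF-hands, loops that bind calcium and change the shape of the protein. Calmodulin and the calmodulin-like (CML) proteins are sensors with no enzyme activity, which act by binding other proteins. Calcium-dependent protein kinases (CDPK) join an EF-hand sensor to a kinase, while calcineurin B-like proteins (CBL) are sensors that switch on partner kinases (CIPK). The 5 genes lie on chromosome 1 (CML10, LOC4325762, and CML31, LOC4325408), chromosome 5 (CML15, LOC4338633, and CML18, LOC9266860) and chromosome 6 (CML30, LOC4340272) in the rice gene table. CML10 and CML31 are separated by 36 annotated protein-coding genes, and CML15 and CML18 by 504.

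CML15 had signals of 382, 531 and 286 on the mutant arrays, against 1994, 1066 and 1254 on the wild-type arrays. The highest mutant array thus lay below the lowest wild-type array, by a factor of 2.01. Means were 400.0 ± 123 in the mutant and 1438 ± 491 in wild type (SD, n = 3 each), so the mutant mean was 27.8% of the wild-type mean. On the scale log2(signal + 32), where the added 32 damps differences between dim probe sets, the difference of mutant minus wild type was -1.76 with a standard error (SE) of 0.24. In order from the most negative difference, CML15 had rank 40 among all tested probe sets.

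CML10 had signals of 1238, 879.6 and 517 in the mutant, against 3675, 2493 and 1761 in wild type. The groups did not overlap, although arrays of 1 genotype differed from each other by more than 2-fold: the highest was 2.39 times the lowest in the mutant and 2.09 times the lowest in wild type. Means were 878 ± 361 in the mutant and 2643 ± 966 in wild type (SD, n = 3 each), and the log2 difference was -1.57 (SE 0.30), at rank 60. A second CML10 probe set did not show this difference. It read 30.5, 30.3 and 22.3 in the mutant, against 29.1, 27.0 and 32.4 in wild type, with overlapping groups and a log2 difference of -0.05 (SE 0.07). All its values lay below the array medians, and whether it detects the transcript was not tested.

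CML31 had signals of 327, 374 and 185 in the mutant, against 1023, 873 and 775 in wild type. The groups lay well apart, since the dimmest wild-type array was 2.07 times the brightest mutant array. Means were 295 ± 98.4 in the mutant and 890.3 ± 125 in wild type (SD, n = 3 each), with a log2 difference of -1.54 (SE 0.20) at rank 67.

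CML30 and CML18 showed smaller differences on tighter replicates. CML30 had signals of 446, 436 and 413 in the mutant, against 881, 742 and 713 in wild type. Its mutant arrays lay within a factor of 1.08 of each other, the narrowest spread among the 5 genes. Its means were 432 ± 16.9 in the mutant and 778 ± 89.5 in wild type, with a log2 difference of -0.80 (SE 0.10) at rank 514. CML18 had signals of 1164, 1002 and 817 in the mutant, against 1612, 1805 and 1670.0 in wild type. Again no mutant array reached the wild-type range, and the lowest wild-type array was 1.38 times the highest mutant array. Its means were 994 ± 174 in the mutant and 1695 ± 99.0 in wild type (SD, n = 3 each for both genes), with a log2 difference of -0.76 (SE 0.12) at rank 581.

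**Figure D1:**
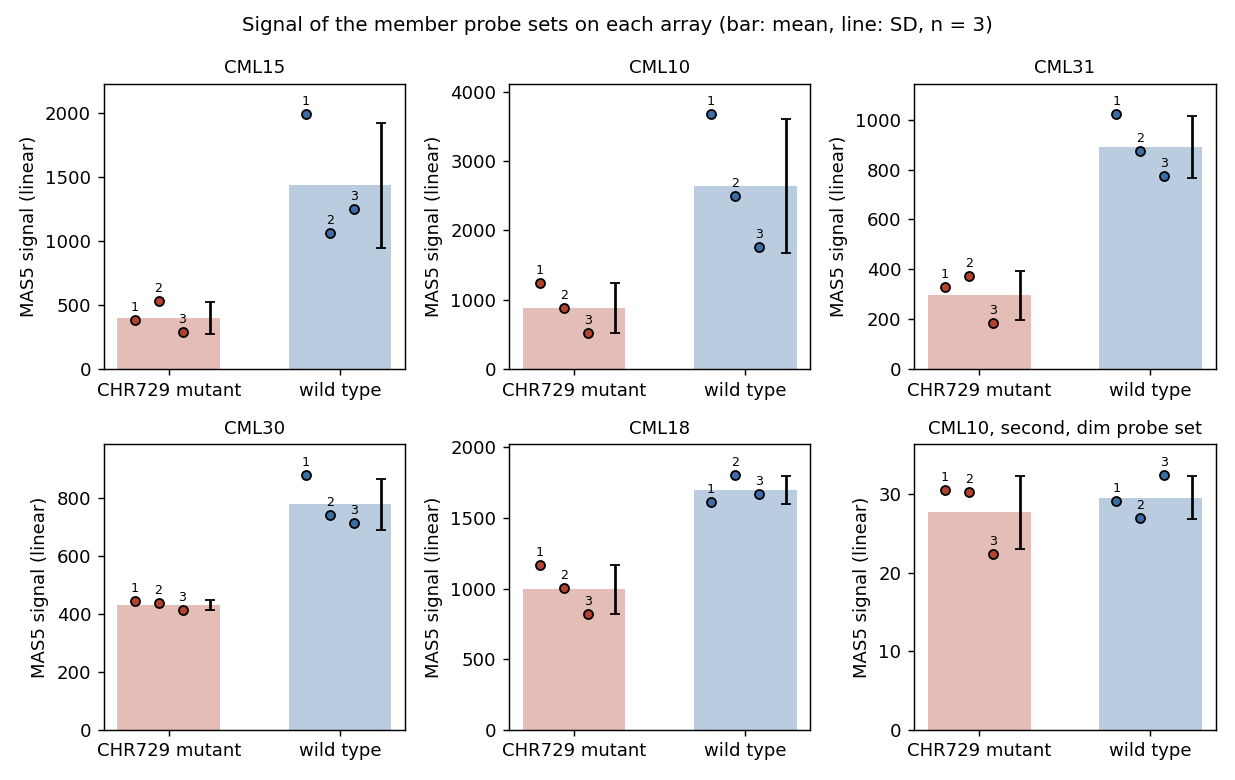
MAS5 signal (linear axis from 0) of the 6 probe sets on each array, with the mutant left of wild type in every panel; points are arrays numbered by replicate, bars are means and lines are SD (n = 3). The bright probe sets of all 5 genes lie lower on every mutant array than on any wild-type array, while the second CML10 probe set, near 30 in both genotypes, overlaps.

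The mutant mean was 27.8% of the wild-type mean for CML15, 33.2% for CML10, 33.2% for CML31, 55.4% for CML30 and 58.6% for CML18. The log2 differences of CML15, CML10 and CML31 lay between -1.76 and -1.54, and those of CML30 and CML18 near -0.8. The groups did not overlap for 5 of the 6 probe sets, where 13.1% of all tested probe sets had every mutant array below every wild-type array. The same 5 passed the threshold of adjusted p under 0.05 in limma, against 4.42% of all tested probe sets that passed as lower. Since the genes were chosen by this contrast, nothing is read from either count. In RNA from whole seedlings, fewer cells that express a gene and less RNA per cell cannot be told apart.

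Markers of the organs in a seedling were summed on each array to set beside these values. A leaf list of 5 photosynthesis genes, 4 of them at or above the array median, summed to between 33870 and 36040 in the mutant and between 34790 and 36900 in wild type. A root list of 14 genes for nitrate, ammonium, silicon and iron uptake, 6 of them at or above the median, summed to between 3312 and 4165 in the mutant and between 4186 and 4396 in wild type. A seed list of 19 genes, which also took in genes that share the letters GT with glutelins, had 7 at or above the median and summed to between 1611 and 1798 in the mutant and between 1867 and 1949 in wild type. The leaf sums overlapped between genotypes, and the root and seed sums were lower on every mutant array. In each of the 3 lists 1 gene passed the threshold as lower, and 1 seed gene passed as higher. Among all genes 8.71% passed as lower and 10.9% as higher, and nothing is read from these few calls. Median log2 differences over the genes were 0.01 for the leaf list, -0.13 for the root list and -0.002 for the seed list. The part of root or seed tissue in the differences of the CML genes was not tested.

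The 5 genes also differed in how much they varied between seedling samples of 1 genotype. Whether the choice of genes depended on this spread is not known. After subtraction of genotype means, the pooled SD on the log2 scale was 0.57 for CML10, 0.44 for CML15, 0.37 for CML31, 0.18 for CML18 and 0.12 for CML30. The median over the 28750 probe sets with a mean signal at or above the array medians was 0.11. CML10 was more variable than 99.4% of these, CML15 than 98.4% and CML31 than 97.3%, whereas CML30 lay at 50.9%. The genes with the largest differences between genotypes were thus also the more variable ones within a genotype, and for CML10 the SE was accordingly the largest of the 5. When the replicate number was added to the fit as a block, the SE of CML10 was 0.10 instead of 0.30. With that block it was 0.21 for CML15, 0.14 for CML31, 0.12 for CML18 and 0.11 for CML30. The labels state no pairing by these numbers. Over all tested probe sets, deviations of arrays with the same number correlated at 0.01, -0.17 and 0.09. The SE values with the block are therefore given as a description only.

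Mutant replicate 3 gave the lowest of the mutant signals for all 5 genes. This array was also the lowest of the mutant arrays for 46.7% of the 28750 probe sets at or above the array medians, and for 70.1% of the 2299 among them that passed the threshold as lower. Wild-type replicate 1 gave the highest wild-type signal for 4 of the 5 genes, against 38.9% of the same probe sets, and CML18 was the exception with its highest signal on wild-type replicate 2. Once genotype means were subtracted, correlations across the 6 arrays lay between 0.61 and 0.83 for 8 of the 10 pairs of genes; they were 0.13 for CML15 with CML18 and 0.12 for CML18 with CML30. CML10 with CML30 and CML10 with CML31 both had 0.83. These values rest on 6 points that share 2 subtracted means, and are given as a description only.

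**Figure D2:**
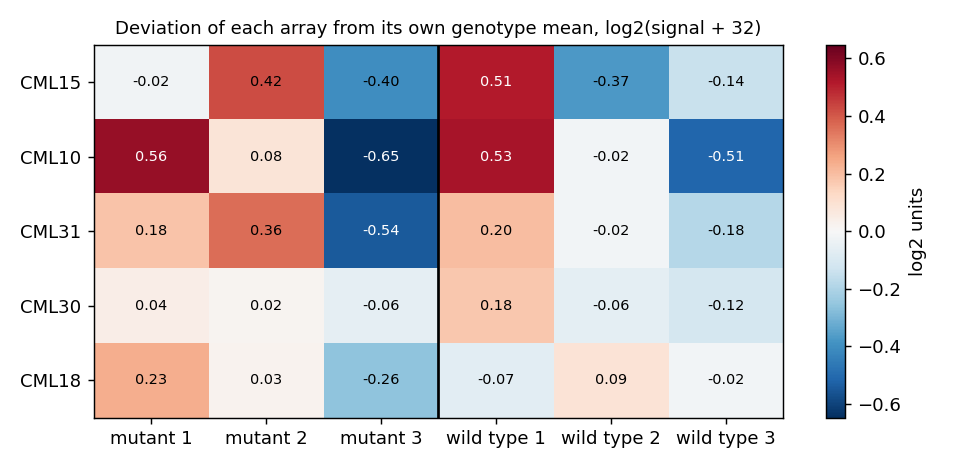
Deviation of each array from the mean of its own genotype, in log2 units, for the brightest probe set of each gene (rows) on the mutant arrays (left) and the wild-type arrays (right). Mutant replicate 3 is negative in every row, from -0.65 for CML10 to -0.06 for CML30, and CML18 alone is not highest on wild-type replicate 1.

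The rest of the calmodulin-like family was measured on the same arrays. Of 26 CML genes in the gene table, 23 had a probe set that named 1 gene, and 18 of these are not among the 5. Each gene was represented by its brightest probe set, and p values came from limma's moderated test, with Benjamini-Hochberg adjustment across the 57258 probe sets. Of the 18, 3 were lower in the mutant, 2 were higher and 13 did not pass; 10, or 55.6%, had an unadjusted p under 0.05, a limit that 38.2% of all genes passed. Among all 17905 genes, 8.71% passed as lower and 10.9% as higher, against 16.7% and 11.1% of the 18. The median log2 difference of the 18 genes was -0.09, and that of all genes 0.01.

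CML16 fell to signals of 2271, 1678 and 1428 in the mutant, against 2938, 3554 and 3460.2 in wild type (log2 difference -0.90, SE 0.15, adjusted p = 0.00505). CML27 fell to 1738, 1439 and 1305 in the mutant, against 2622, 2611 and 2116 in wild type (-0.70, SE 0.12, adjusted p = 0.00629). Both genes were bright and had no overlap between the groups. The difference of CML16 was larger than those of CML30 and CML18, and that of CML27 smaller. A second, dim CML27 probe set did not pass, with -0.07 (adjusted p = 0.61). CML20 fell too, to 154, 128.4 and 61.2 in the mutant, against 292, 228 and 177 in wild type (-0.89, SE 0.23, adjusted p = 0.0369). It was named after its values were seen, because it completes the 3 that fell. Its call was lost without mutant replicate 2 or 3 or without wild-type replicate 1 or 2, with adjusted p between 0.0780 and 0.112. With an array left out its log2 difference stayed between -1.09 and -0.59.

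The 2 CML genes that rose were dim. CML17 read 62.3, 72.1 and 56.8 in the mutant, against 39.96, 32.7 and 39.4 in wild type (0.46, SE 0.08, adjusted p = 0.00675). Its wild-type signals and those of mutant replicates 1 and 3 lay below the array medians. CML11 read 82.6, 106 and 115 in the mutant, against 68.4, 66.5 and 69.6 in wild type (0.40, SE 0.10, adjusted p = 0.0266), and it missed the threshold when mutant replicate 2 or 3 or wild-type replicate 1 or 2 was left out, with adjusted p between 0.0564 and 0.121. The sizes of both rises depend on the added 32. CML4 and CML1, the second known as a calmodulin-like protein with a lipid anchor, had differences of -0.36 and -0.28 that did not pass (adjusted p = 0.0744 and 0.125).

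Of the 4 genes in the calmodulin list none fell and 1 rose in limma, with 2 of the 4 at an unadjusted p under 0.05, both higher, against 38.2% of all genes. CAM3 rose, with signals of 2148, 2421 and 2414 in the mutant, against 1684, 1524 and 2017 in wild type (0.42, SE 0.11, adjusted p = 0.0389). That call was lost without wild-type replicate 1 or 2 and without any one of the mutant arrays, with adjusted p between 0.0510 and 0.168. CAM1 had 0.23 (adjusted p = 0.128) and CAM2 -0.01 (adjusted p = 0.99); the sign of the CAM2 value turned under quantile normalisation and array weights and without mutant replicate 1 or wild-type replicate 3. CML5, which the gene table also calls OsCAM-2 and which was counted in both lists, had -0.06 (adjusted p = 0.744). Calmodulin genes have near-identical coding sequences, so a probe set for 1 of them may also bind transcripts of another.

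**Figure D3:**
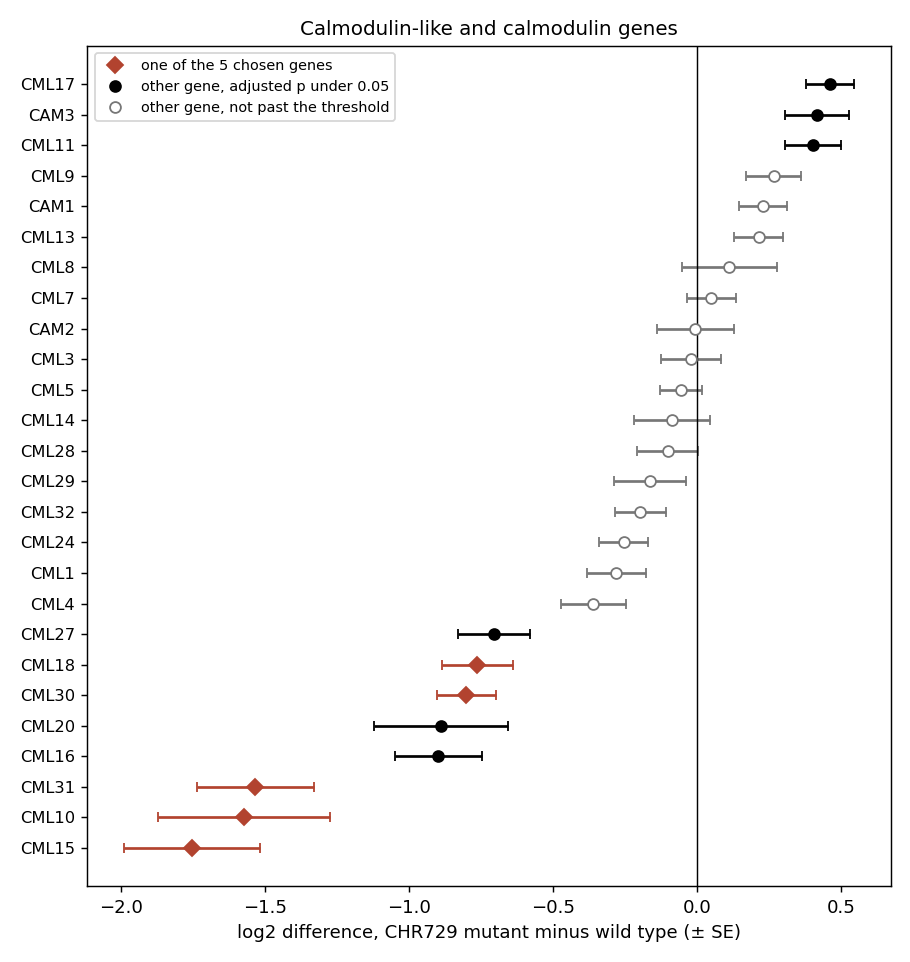
Log2 difference of mutant minus wild type, with SE, for the brightest probe set of each of the 23 measured CML genes and of CAM1, CAM2 and CAM3, with red diamonds for the 5 chosen genes and filled circles for other genes with adjusted p under 0.05. CML16, CML20 and CML27 lie beside CML30 and CML18, between -0.90 and -0.70, while CML17, CAM3 and CML11 lie at the other end, between 0.40 and 0.46.

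Genes that act before or after such sensors were taken by symbol. Together with the 18 CML genes they made 86 genes, of which 11 fell and 4 rose, 12.8% and 4.65% of the list against 8.71% and 10.9% of all genes, with a median log2 difference of -0.08. Leaving out mutant replicate 2 or mutant replicate 3 gave 3 lower and 1 higher. Leaving out wild-type replicate 2 gave 5 lower and 1 higher, and leaving out wild-type replicate 3 gave 14 lower and 7 higher. Of the 15 genes called, 4 passed in every alternative that kept their probe set, namely CML16, CML27, CML17 and CIPK14, and 11 missed the threshold in at least 1 alternative.

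Among sensor kinases, 3 of 20 CDPK genes (15.0%) fell and none rose in limma, where 8.71% of all genes fell and 10.9% rose. An unadjusted p under 0.05 was found for 5 of the 20, a smaller share than the 38.2% of all genes. CPK20 averaged 834 ± 168 in the mutant and 1499 ± 356 in wild type (-0.81, SE 0.18, adjusted p = 0.0183), and CPK4, a kinase known for salt and drought tolerance, averaged 1986 ± 662 in the mutant and 3616 ± 614 in wild type (-0.89, SE 0.20, adjusted p = 0.0205). CPK13 fell in its brightest probe set (-0.41, SE 0.09, adjusted p = 0.0223) and in a dimmer one (-0.50, adjusted p = 0.0184). In the CBL branch none of 7 sensor genes passed in limma, with 1 (14.3%) at an unadjusted p under 0.05. Of 24 partner kinase genes 4 (16.7%) fell and none rose, and 13 (54.2%) had an unadjusted p under 0.05. CIPK14 averaged 2904 ± 375 in the mutant and 4460 ± 185 in wild type (-0.62, SE 0.10, adjusted p = 0.0044), and it is known to have a near-identical copy, CIPK15, whose transcript its probes may also bind. CIPK29, CIPK7 and CIPK26 fell by 0.68, 0.32 and 0.43 on the log2 scale. A dimmer CIPK7 probe set had -0.41 and did not pass (adjusted p = 0.0786).

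Of the genes that move or store calcium, 1 passed the threshold. CAX1b, a vacuolar exchanger that stores calcium, averaged 107 ± 14.1 in the mutant and 165 ± 24.4 in wild type (-0.50, SE 0.11, adjusted p = 0.0194). It was the 1 of 11 pump, exchanger and storage genes to pass, or 9.09% as lower, against 8.71% of all genes. CRO1, known as calreticulin of the endoplasmic reticulum, had 0.26 (adjusted p = 0.057), and the calcium pump genes ACA8 and ACA7 had 0.32 (adjusted p = 0.0601) and -0.52 (adjusted p = 0.105). The channel genes OsTPC1 and GLR3.1 had -0.08 and -0.12 and did not pass. A second GLR3.1 probe set went the other way, with 366 ± 4.44 in the mutant and 308 ± 9.16 in wild type and no overlap, and did not pass either (0.23, SE 0.08, adjusted p = 0.132). Nor did the further probe sets of OsTPC1, ACA8, CML4 and CML5. CCAMK, the calcium and calmodulin-dependent kinase of root symbiosis, rose to 263 ± 24.9 in the mutant, against 189 ± 14.4 in wild type (0.41, SE 0.10, adjusted p = 0.0243), and a dim CCAMK probe set had 0.02 (adjusted p = 0.915).

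**Figure D4:**
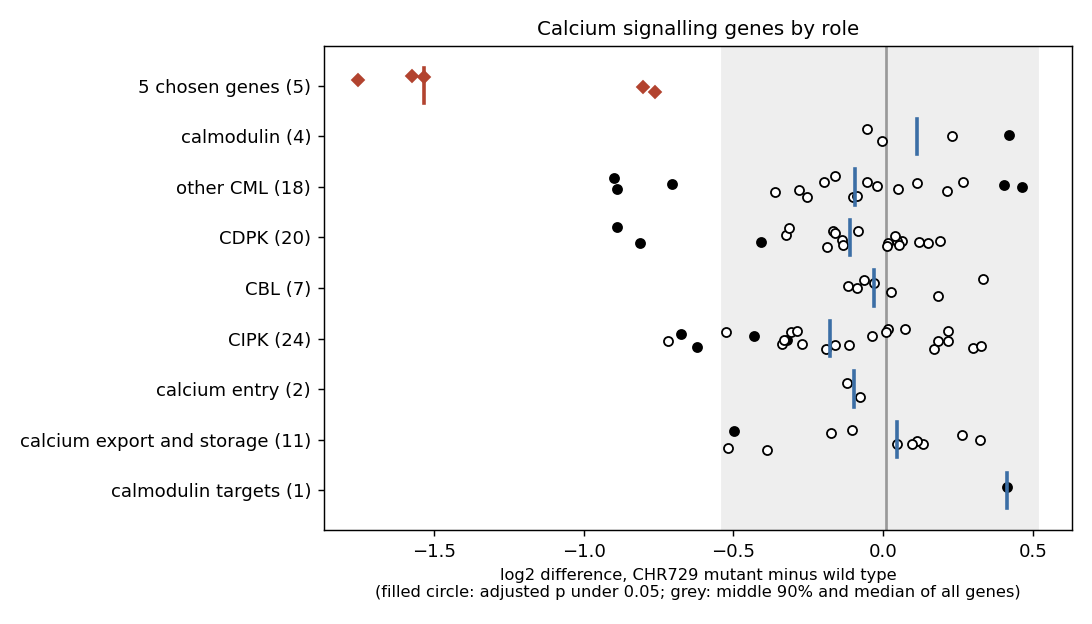
Log2 difference of mutant minus wild type for the 5 chosen genes (red diamonds) and for the other calcium signalling genes by role (circles, filled where adjusted p is under 0.05), with list sizes in brackets, a short bar at each median and the middle 90% of all genes in grey. The chosen genes, with a median of -1.54, lie left of the grey band, as do CML16, CML20, CML27, CPK4, CPK20, CIPK14, CIPK29 and CIPK21, which did not pass (adjusted p = 0.0507).

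Genes whose profile over the 6 arrays was most like that of each CML gene were sought among 2543 probe sets of named genes at or above the array median. The highest Pearson correlations were 0.999 for DXPS, a gene of plastid isoprenoid synthesis, with CML10, and 0.994 for OsPRR73, a clock-family pseudo-response regulator, with CML15. For CML18 the closest was ASB1, an anthranilate synthase subunit gene of tryptophan synthesis, at 0.998. For CML30 it was KRP4, a cell cycle inhibitor gene, at 0.998, beside ORR4, a cytokinin response regulator gene, also at 0.998. For CML31 it was Os4CL4, of phenylpropanoid synthesis, at 0.996, with CIPK14 in the third place at 0.990. Most of such a correlation is the difference between the genotypes, since the arrays form 2 groups. With genotype means subtracted the closest genes were others: CIPK25 for CML10 (0.998), CH16 for CML15 (0.988), JMJ706, a histone demethylase gene, for CML18 (0.999), EIL1, of ethylene signalling, for CML30 (0.999) and PSD1 for CML31 (0.998). Osnph1b, a phototropin gene, was the single gene among the 3 closest to the same CML gene, CML10, by both measures. The highest of 2543 correlations over 6 arrays is large for almost any profile, so these are descriptions of likeness.

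The genes that neighbour the 5 CML genes were added to the comparison after the data were seen. Up to 5 protein-coding genes on each side in the gene table gave 30 measured genes, of which 4 were lower in the mutant and none higher in limma, 13.3% lower against 8.71% of all genes. At an unadjusted p under 0.05, 6 were lower and 4 higher, together 33.3% against 38.2% of all genes. LOC4340271, which lies next to CML30, fell to 147 in the mutant, against 217 in wild type (log2 difference -0.47, SE 0.10, adjusted p = 0.0133), and LOC4340270, the next gene on that side, fell to 699 in the mutant, against 1006 in wild type (-0.50, SE 0.11, adjusted p = 0.0184). Both calls were lost without mutant replicate 2 or 3, with adjusted p between 0.0568 and 0.0947. LOC4325760, 2 places from CML10, had -0.77 (SE 0.15, adjusted p = 0.0105), while the gene between them, LOC4325761, had 0.03 (adjusted p = 0.918). LOC4338636, 2 places from CML15, had -0.66 (SE 0.11, adjusted p = 0.00429). None of the measured neighbours of CML31 and CML18 passed. The measured neighbours of CML15, CML10 and CML31 had smaller differences than these genes. Since CML15, CML10 and CML31 were chosen for low signals in the mutant and their neighbours were not, nothing is read from that. Whether neighbouring genes change together was not tested.

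**Figure D5:**
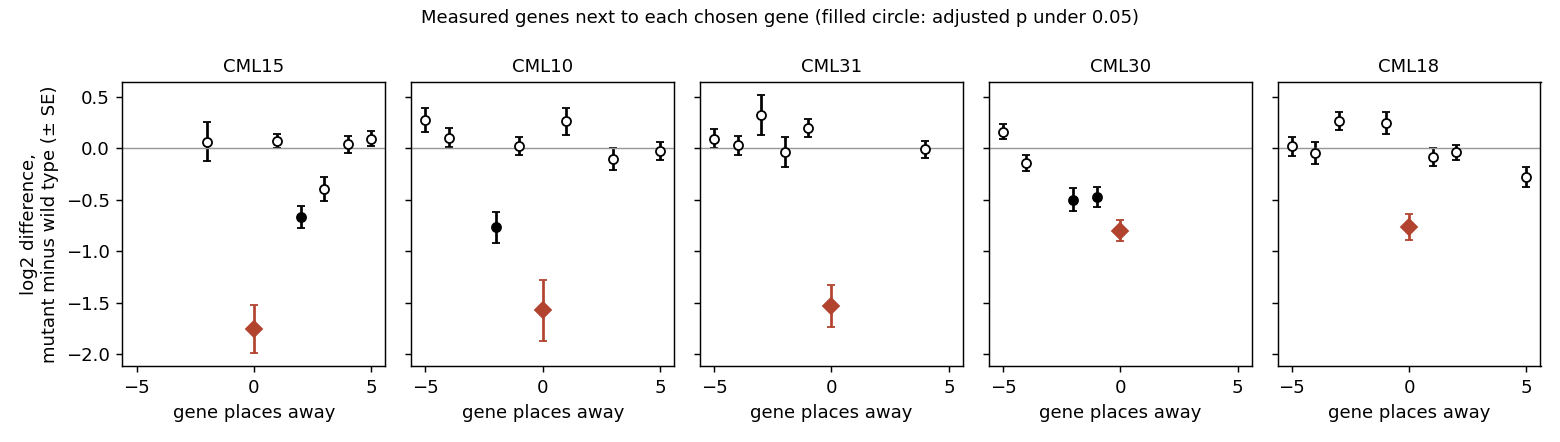
Log2 difference of mutant minus wild type, with SE, for each chosen gene (red diamond at 0) and the measured protein-coding genes up to 5 places away on either side in the gene table (circles, filled where adjusted p is under 0.05). Next to CML30 the genes 1 and 2 places away lie at -0.47 and -0.50, whereas around CML31 and CML18 no neighbour passed.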

How the data were processed

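The deposited values are linear probe set signals (intensity) that the authors computed with MAS5, per the submitters' processing notes; the version and scaling target are not stated in the labels, and detection calls were not used here. After 123 control probe sets were removed, 57258 were tested as log2(signal + 32) with limma 3.58.1 under R 4.3.3 (lmFit, eBayes with an intensity trend, 2-sided). Adjusted p values are Benjamini-Hochberg across these probe sets and called under 0.05; SE is the model's. An exact test of 3 against 3 arrays cannot give p below 0.1, so none was used.

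Probe sets were joined to genes by the array's public annotation (22436 naming 1 gene, 17905 genes) and to symbols by gene ID in the rice gene table (ASM3414082v1); all 22436 matched. The members and lists were chosen with earlier results of these data known. Up to 4 genes with the lowest p were named per calcium list, and the 3 genes most alike per CML gene by each measure were sought, of which the closest are named; CML20, CML4, CML1, CIPK21 and the neighbours fall outside that rule and were chosen after their values were seen. The fit was tested on simulated data. Alternatives were offsets of 1 and 128, quantile normalisation, array medians subtracted, the 40% dimmest probe sets left out, array weights, no trend, the replicate number as a block and each array left out. Over all tested probe sets, deviations of arrays with the same replicate number correlated at 0.01, -0.17 and 0.09, so the numbers were not taken to pair the samples. Tables and plots were made with pandas 2.3.3 and matplotlib 3.10.9 under Python 3.11.15.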

Additional observations from a re-analysis of the deposited data

How the results depend on the processing

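The log2 differences of the 6 CML probe sets moved by less than 1 SD between replicates in all 83 comparisons with an alternative. Most of these could not have come out otherwise, so nothing is read from that count. Leaving out 1 of 3 arrays cannot move a difference by as much as this SD. Dropping the trend, adding the block or applying the 40% filter leaves the difference of a kept probe set unchanged. The differences kept their sign for the 5 bright probe sets. They ranged from -1.97 to -1.50 for CML15, -1.86 to -1.25 for CML10, -1.71 to -1.26 for CML31, -0.88 to -0.63 for CML18 and -0.86 to -0.69 for CML30, and from -0.10 to 0.02 for the dim CML10 probe set, which the 40% filter removed. Counts of calls changed when single arrays were left out. With each array left out in turn, 1358 to 3511 probe sets rose and 916 to 2838 fell, against 3140 and 2532 with all arrays. Of the other calcium genes 1 to 7 rose and 3 to 14 fell, and of the other CML genes 1 to 2 rose and 2 to 4 fell. The lowest counts of probe sets and calcium genes came when mutant replicate 2, mutant replicate 3 or wild-type replicate 2 was left out, and those of CML genes also without wild-type replicate 1; the cause was not tested. The 40% filter left 1 rising CML gene, since it removed the dim CML17. With the replicate number as a block 2730 probe sets rose and 2385 fell, and of the calcium genes 4 rose and 12 fell; CIPK7 was lost (adjusted p = 0.0789) and CIPK21 (adjusted p = 0.0105) and ACA7 (adjusted p = 0.0481) were gained. Values that changed sign were not past the threshold: CAM2 had 0.032 with quantile normalisation, 0.0012 with array weights and -0.13 to 0.16 with an array left out, GLR3.1 had -0.23 to 0.023 with an array left out, and the neighbour LOC4325761 had -0.017 to 0.067 with an array left out. CRO1 and CIPK21 each passed in 6 alternatives and ACA8 in 3. The alternatives for neighbours were chosen after seeing the data. Dim probe sets limit CML17, CML11 and the second CML10 probe set.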
